A study of Arabidopsis thaliana with 6 samples.

Results

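Gibberellins are plant hormones that promote germination and elongation growth, and their level in a tissue is set by enzymes that make the active forms and enzymes that destroy them. The 10 genes described here encode such enzymes and were chosen by locus from the 27981 loci on the arrays. They are KO and KAO1 of the early synthesis, GA20ox1, GA20ox2 and GA20ox3, GA3ox1 and GA3ox2, and the inactivating enzymes GA2ox1, GA2ox2 and GA2ox6. Each gene was measured by 1 feature (a probe set built for a gene model), except GA2ox2, which had 2.

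Transcript levels were measured in seeds of Arabidopsis thaliana Col-0 with germination completed to radicle protrusion, that is at the point where desiccation tolerance has been lost and can still be restored. There were 3 arrays of untreated seeds, frozen at once after germination at 22 °C in constant white light, and 3 arrays of seeds kept for 72 h in polyethylene glycol (PEG, an osmoticum that withholds water) at -2.5 MPa. The PEG incubation took place in the dark at 20 °C, so the effects of water stress, absence of light, elapsed time and lower temperature cannot be told apart. The array titles call the replicates biological, and each array used 50 ng of total RNA. The study's methods describe 3 bulk harvests of seed, each from 2 or more plants. The harvest behind each array is not given in the sources used here, so untreated and PEG arrays may share one.

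The deposited values are log2 expression values, in which a difference of 1 is a doubling of signal. Values under 4, which the array methods of the study treat as background noise, were set to 4 before testing (the floor), and between 38.2 and 41.6 % of features lay under it on each array. Arrays of a group correlated with each other at Pearson's r of 0.982 to 0.992 across features, and untreated replicate 2 had the lowest values within its group (0.982 and 0.983). As the RNA came from whole seeds, fewer cells that express a gene and less RNA per cell cannot be told apart. All 4 endosperm markers (EPR1, EXPA2, MAN7 and MAN6) lay above the floor on every array. Their summed log2 level was 27.5 to 28.3 in untreated seeds and 29.5 to 30.0 after PEG, and the members of this list moved in both directions. MAN7 was called higher (log2 fold change 2.88) and EXPA2 had 0.47, while EPR1 had -0.98 (limma adjusted p = 0.029) and MAN6 -0.64 (limma adjusted p = 0.031). The groups of arrays did not overlap for any of the 4 (they did not for 49.6 % of all features), and their median log2 fold change was -0.09. Of 6 markers of the embryo axis and root, SCR and SHR lay above the floor on every array, PLT2 on 2 arrays, and PLT1, EXPA7 and COBL9 on none. The summed level of these 6 was 27.7 to 28.6 in untreated seeds and 27.3 to 27.5 after PEG. The part of such shifts in the results below was not tested.

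Gibberellin synthesis starts in the plastid, where the diterpene ent-kaurene is made, and goes on through cytochrome P450 oxidases such as KO and KAO1. Soluble dioxygenases then take over. The GA20-oxidases make the precursors, the GA3-oxidases turn these into active gibberellins, and the GA2-oxidases inactivate both. In germinating Arabidopsis seeds, GA3ox1 and GA3ox2 are known for their induction by red light through phytochrome. GA3ox1, unlike GA3ox2, is also known there to be lowered by active gibberellin through feedback.

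After PEG, the transcripts of both GA3-oxidases declined and those of GA2ox2, an inactivating enzyme, accumulated. GA3ox2 declined most, 12.8-fold, and GA3ox1 went from a clear signal to under the floor on all PEG arrays. GA2ox2 rose 2.35-fold. Of the other 7 genes, none had an adjusted p of 0.01 or less, and 1 of them, GA2ox1, lay under the floor on all 6 arrays. Calls required a limma p of 0.01 or less after Benjamini-Hochberg adjustment over all 35986 features, and a change of at least 2 on the log2 scale in either direction. By this rule 1 of the 10 genes was called (GA3ox2, lower), beside 2.75 % of all features in either direction, 1.6 % with lower and 1.15 % with higher levels. At any fold change 3 of the 10 passed the limit on p (15.7 % of all features did), 2 lower (8.24 %) and 1 higher (7.46 %). The median log2 fold change of the 10 genes was -0.12, against 0.00 over all features. With the floor, this median lies between GA20ox1 and GA20ox2, both near the floor, and 12085 features were at the floor on all arrays. On the deposited values the medians were -0.20 and 0.01.

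**Figure D1:**
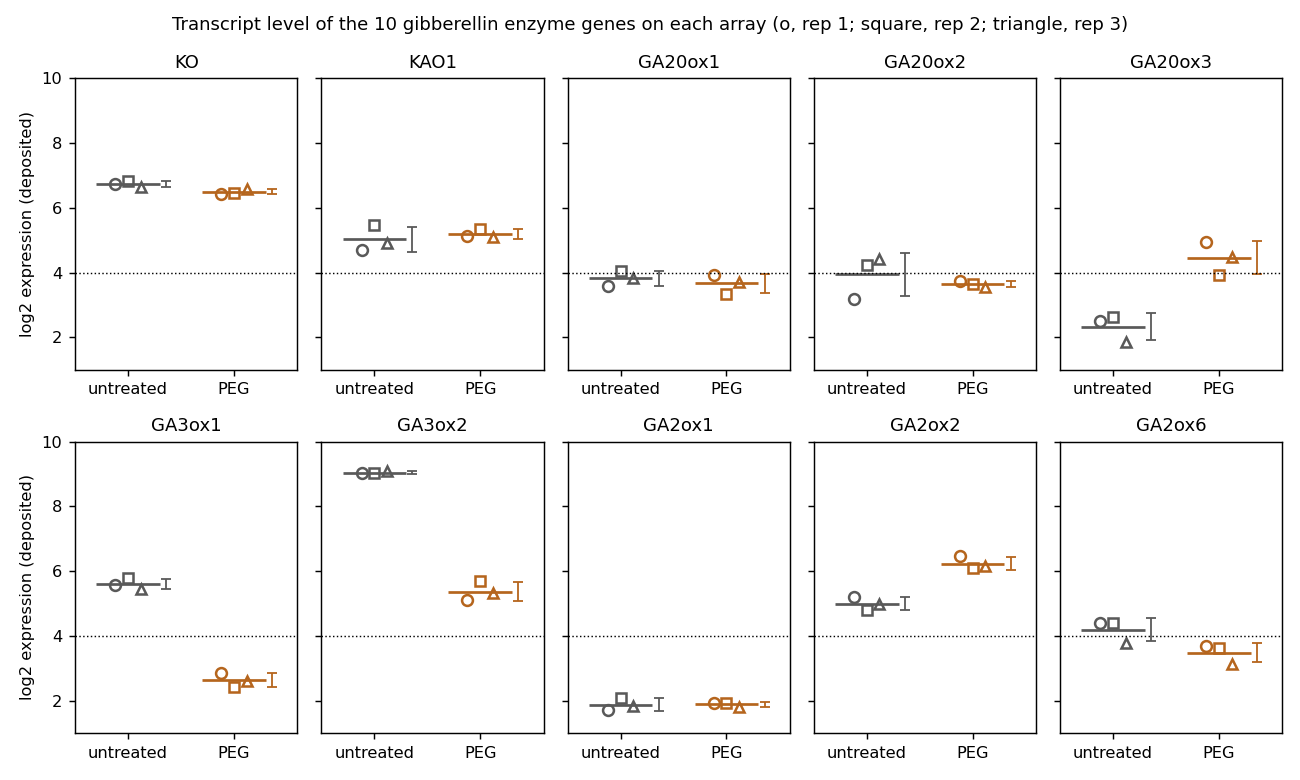
Deposited log2 expression of each of the 10 genes on every array, with untreated arrays in grey and PEG arrays in brown; points are arrays, horizontal lines group means, bars the SD (n = 3) and the dotted line the floor of 4. The GA3ox2 arrays lie between 9.02 and 9.09 in untreated seeds and between 5.10 and 5.69 after PEG, and GA3ox1 passes from above to under the floor.

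Active gibberellins arise in the step of the GA3-oxidases, and both members measured here were lower after PEG. GA3ox2 (AT1G80340) had log2 levels of 9.02, 9.03 and 9.09 on the untreated arrays and 5.10, 5.69 and 5.32 on the PEG arrays. The untreated arrays were nearly identical, the PEG arrays spread over 0.59, and 3.33 separated the lowest untreated from the highest PEG array. The group means were 9.05 ± 0.03 and 5.37 ± 0.30 (SD, n = 3 each), and the log2 fold change was -3.68 with an SE of 0.17 (adjusted p = 6.7e-04 from limma). Only 52 of the 35986 features had a lower log2 fold change than GA3ox2. After PEG the gene was still above the floor on all 3 arrays, so its fall is not shortened by it, and the call was kept with each array left out in turn (log2 fold change -3.83 to -3.54).

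GA3ox1 (AT1G15550, the gene of the dwarf mutant ga4) had 5.56, 5.79 and 5.46 in untreated seeds and 2.86, 2.42 and 2.62 after PEG. All untreated arrays were above the floor and all PEG arrays under it, with 2.61 between the groups. With the floor, the untreated mean of 5.60 ± 0.17 (SD, n = 3) stood against 4.00, and the log2 fold change was -1.60 with an SE of 0.09 (adjusted p = 0.0011 from limma). The PEG group was then set wholly to 4, so it adds no spread to this SE. The transcript was therefore at least 3.04-fold lower, and it passed the limit on p but not the fold limit. On the deposited values the log2 fold change was -2.97 (SE 0.17, 95 % interval -3.37 to -2.58; limma adjusted p = 6.1e-06), past both limits. Its size then rests on PEG levels in the range treated as noise. The adjusted p stayed at 0.01 or less with each array left out, at 0.0011 to 0.0098. It did not with a floor of 5 (log2 fold change -0.60, limma adjusted p = 0.015) or with the replicate number as a block (limma adjusted p = 0.027).

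The features closest to GA3ox2 in pattern were searched among the 22468 features that exceeded the floor on 3 or more arrays, as the mean absolute difference over the 6 arrays after each feature's own mean was subtracted. XTH16 (AT3G23730, a xyloglucan endotransglucosylase/hydrolase of the cell wall) was nearest at 0.133, with a log2 fold change of -3.60. AT2G43150, at 0.134, changed by -3.83, and RPT2 (ROOT PHOTOTROPISM 2), at 0.141, by -3.39. With the arrays in 2 groups, such likeness is a description of the size of the fall and of the spread within groups. The study lists AT2G43150 among extensin transcripts that ABA lowered and PEG did not affect significantly. In the arrays used here its fall had a limma adjusted p of 0.0011. The PEG data and limits behind the study's statement may differ from those used here. The place of GA3ox2 and of the other members in the spread of all changes is seen in the plot of fold changes over features.

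**Figure D2:**
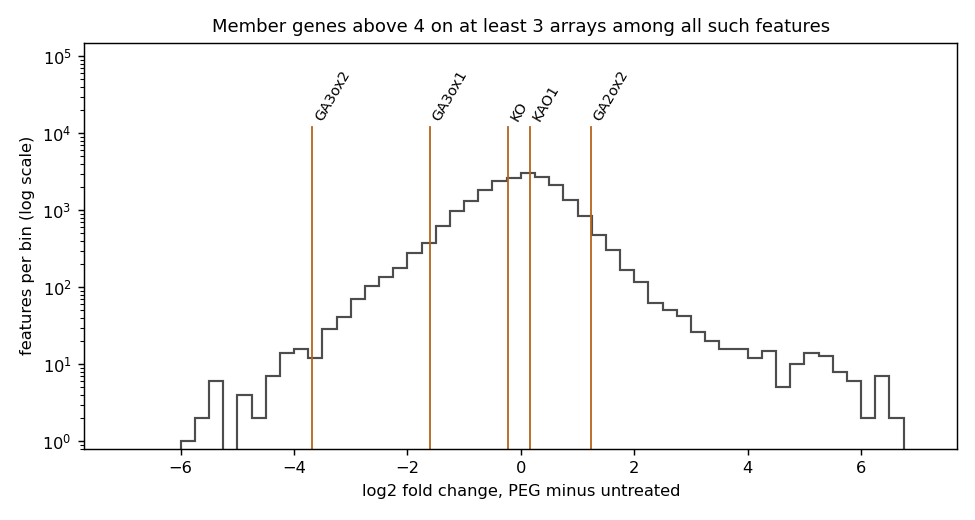
Number of features (log scale) in bins of 0.25 of the log2 fold change between PEG and untreated seeds, for the 22468 features that exceeded 4 on 3 or more arrays, with lines at the 5 member genes among them. GA3ox2 at -3.68 lies far out in the tail of declining features, GA3ox1 at -1.60 and GA2ox2 at 1.23 on the flanks, and KO and KAO1 near the centre.

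Among the inactivating enzymes, GA2ox2 passed the limit on p. This enzyme adds a hydroxyl group to active gibberellins and their precursors, which destroys their activity. The feature with the higher mean (gene model AT1G30040.2) had 5.19, 4.81 and 5.0 in untreated seeds and 6.46, 6.10 and 6.15 after PEG. All PEG arrays lay above all untreated arrays, by 0.91, which is more than the range within either group (0.38 and 0.36). The means were 5.0 ± 0.19 and 6.24 ± 0.19 (SD, n = 3 each), and the log2 fold change of 1.23 with an SE of 0.15 (adjusted p = 0.0066 from limma) missed the fold limit. A total of 1424 features had a higher log2 fold change.

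The second feature of GA2ox2 (AT1G30040.1) gave 4.70, 4.39 and 4.63 in untreated seeds and 5.85, 5.55 and 6.07 after PEG, and changed by 1.25 on the log2 scale with an SE of 0.17 (adjusted p = 0.0090 from limma). Both features thus show a rise of about the same size, although they measure gene models of 1 locus and are not independent. With any 1 array left out, the adjusted p of the first feature was 0.018 to 0.032 and no longer passed the limit. In the limma fit restricted to features that exceeded the floor on 3 or more arrays it was 1.2e-04, and 6.3e-04 to 0.0016 with each array also left out. Leaving out arrays within that fit was added after seeing the data. The restricted fit holds 5 of the 10 members (GA3ox1, GA3ox2, GA2ox2, KO and KAO1), GA3ox1 through its untreated arrays alone.

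GA2ox1 (AT1G78440), of the same enzyme class, had 1.70 to 2.09 in untreated seeds and 1.80 to 1.92 after PEG. It was thus not detectable above the floor in either group. GA2ox6 (AT1G02400) lay just at the floor, with 4.40, 4.39 and 3.78 in untreated seeds and 3.68, 3.62 and 3.14 after PEG. The lowest untreated and the highest PEG array were 0.10 apart. With the floor, the log2 fold change of GA2ox6 was -0.26 (95 % interval -0.60 to 0.08; limma adjusted p = 0.23), and on the deposited values -0.71 (-1.22 to -0.20; limma adjusted p = 0.034). Without untreated replicate 3, the only untreated array under the floor, it was -0.39 with a limma adjusted p of 4.2e-04, and both remaining untreated arrays then stand against a PEG group set wholly to 4. The sign of GA2ox6 was thus the reverse of that of GA2ox2 in both settings, but the limit on p was not passed with all arrays.

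**Figure D3:**
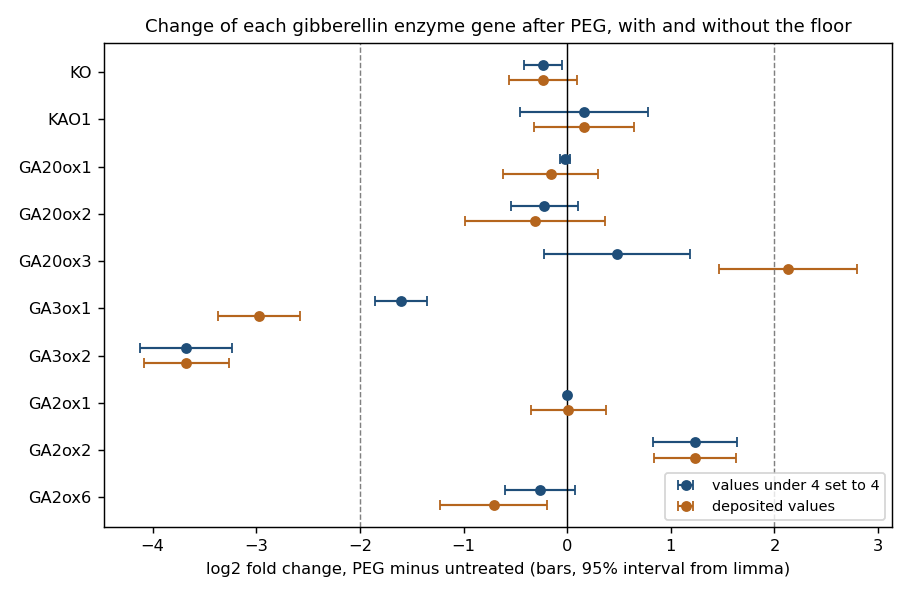
Log2 fold change of each of the 10 genes (PEG minus untreated) with its 95 % interval from limma, once with values under 4 set to 4 (blue) and once on the deposited values (brown); dashed lines mark the fold limit of 2. The fold changes coincide for GA3ox2, GA2ox2, KO and KAO1, and part for GA3ox1 (-1.60 and -2.97) and GA20ox3 (0.48 and 2.13). The intervals differ also where the fold changes coincide, as for KO (-0.42 to -0.05 and -0.56 to 0.10).

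The GA20-oxidases catalyse several successive oxidations and supply the precursors of active gibberellins. All 3 were near or under the floor. GA20ox1 (AT4G25420, the gene of the semi-dwarf mutant ga5) had 3.59, 4.06 and 3.83 in untreated seeds and 3.92, 3.35 and 3.72 after PEG. GA20ox2 (AT5G51810) had 3.19, 4.23 and 4.43 against 3.75, 3.64 and 3.54. The groups overlapped for both genes, and neither differed by more than the spread between replicates. On the deposited values, the log2 fold change was -0.16 for GA20ox1 (95 % interval -0.61 to 0.29) and -0.31 for GA20ox2 (-0.98 to 0.37), with limma adjusted p of 0.60 and 0.48. Untreated replicate 1 was low for GA20ox2, 1.24 under untreated replicate 3.

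GA20ox3 (AT5G07200) behaved otherwise. It had 2.49, 2.63 and 1.85 in untreated seeds and 4.94, 3.92 and 4.49 after PEG. Every PEG array was above every untreated array, by 1.29, but PEG replicate 2 remained just under the floor. With the floor, the untreated group was at 4.00 and the PEG group at 4.48 ± 0.47 (SD, n = 3), and the log2 fold change was 0.48 with an SE of 0.26 (adjusted p = 0.29 from limma). On the deposited values it was 2.13 (95 % interval 1.46 to 2.79; limma adjusted p = 5.1e-04), past both limits. Whether GA20ox3 counts as higher after PEG thus depends on the floor, and the difference rests on untreated levels in the range treated as noise.

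Of the early enzymes, neither passed the limit on p. KO (AT5G25900, ent-kaurene oxidase, the gene of the mutant ga3) had 6.74, 6.82 and 6.63 in untreated seeds and 6.44, 6.47 and 6.59 after PEG. The groups were 0.04 apart. The means of 6.73 ± 0.10 and 6.50 ± 0.08 (SD, n = 3 each) gave -0.23 on the log2 scale (SE 0.07, 95 % interval -0.42 to -0.05), which did not pass after adjustment (limma adjusted p = 0.074). In the fit without the floor the interval was -0.56 to 0.10 (limma adjusted p = 0.26). KAO1 (AT1G05160, ent-kaurenoic acid oxidase) had 4.71, 5.46 and 4.92 against 5.12, 5.36 and 5.09, so that the PEG arrays lay within the untreated range. Its log2 fold change was 0.16 (SE 0.23, 95 % interval -0.46 to 0.78; limma adjusted p = 0.88). The locus of KAO1 overlaps the protein-coding locus AT1G05170 in the TAIR10.1 gene table, and signal shared between these neighbours was not tested.

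On the deposited values, the groups of arrays did not overlap for 6 of the 10 genes (GA3ox1, GA3ox2, GA20ox3, GA2ox2, GA2ox6 and KO), beside 49.6 % of all features. Without the floor, 3 of the 10 were called (GA3ox1, GA3ox2 and GA20ox3), beside 4.68 % of all features. A total of 4 of the 10 then passed the limit on p at any fold change, beside 26.7 %. With the fold limit at 1 and the floor kept, GA3ox1, GA3ox2 and GA2ox2 were called, beside 10.2 % of all features. The number of arrays limits the precision of each single gene, as an exact permutation test of 3 arrays against 3 cannot give a two-sided p under 0.1.

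Among 15 other genes of gibberellin metabolism, none was called, and 12 lay under the floor on all arrays. At an unadjusted p under 0.05, 2 of the 15 passed in limma (38.2 % of all features did), and the ordinary t statistic of the linear model called none either. The 12 include CPS, the enzyme of the first committed step, GA20ox4, GA20ox5, GA3ox3, 4 further GA2-oxidases (GA2ox3, GA2ox4, GA2ox7 and GA2ox8), the methyltransferases GAMT1 and GAMT2, and ELA1 and ELA2. KAO2, the second kaurenoic acid oxidase, was the only one to pass the limit on p, with a small rise of 0.34 from 7.19 ± 0.04 to 7.53 ± 0.04 (SD, n = 3 each; limma adjusted p = 0.0037), which did not pass on the deposited values (0.089), in the restricted fit (0.030) or with any array left out (0.013 to 0.020). KS, the ent-kaurene synthase, went from 4.00 to 4.88 ± 0.26 (log2 fold change 0.88, limma adjusted p = 0.014), and passed the limit without the floor, with 1.27 and an adjusted p of 0.0020. GA3ox4, whose locus lies next to that of GA3ox2, had 3.78, 4.67 and 4.80 against 3.99, 3.76 and 2.86 (log2 fold change -0.49, limma adjusted p = 0.23).

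Gibberellin acts by binding a GID1 receptor, which then leads the DELLA repressors of growth to destruction through the F-box protein SLY1. None of 10 such signalling genes was called, while 9 had an unadjusted p under 0.05 in limma (38.2 % of all features), and the ordinary t statistic called none. At any fold change, 4 of the 10 passed the limit on p, beside 15.7 % of all features, and without the floor 6 of the 10, beside 26.7 %. The receptor GID1B fell, with a log2 fold change of -1.79 (limma adjusted p = 7.7e-04). The other receptors had the reverse sign, with 1.46 for GID1A (limma adjusted p = 0.029) and 0.67 for GID1C (limma adjusted p = 0.083), and the groups of arrays did not overlap for either. Of the DELLA genes, RGL2, the main repressor of germination, rose by 1.47 (adjusted p = 0.0060), RGL3 rose by 0.89 (0.0074) and RGL1 fell from 4.71 ± 0.17 (SD, n = 3) to the floor (log2 fold change -0.71, adjusted p = 0.0088; limma with Benjamini-Hochberg adjustment for all 3). GID1B passed the limit on p with any array left out, while RGL1, RGL2 and RGL3 each passed with 1 of the 6 arrays left out (untreated replicate 2, 3 and 1, respectively), with adjusted p of up to 0.040, 0.031 and 0.034 in limma. In the restricted fit RGL2 and RGL3 passed whichever array was left out, and RGL1 entered that fit through its untreated arrays alone. The 6 genes that did not pass with the floor were GID1A, GID1C, RGA, GAI, SLY1 and SNE, with SNE under the floor on all arrays. Of these, GID1A and GAI (log2 fold change 1.02, limma adjusted p = 0.051) passed the limit on p without the floor, with 0.0020 and 0.0073, and in the restricted fit, with 6.6e-04 and 0.0026.

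Of 8 genes known to rise with gibberellin, 1 was called (GASA1, a small cysteine-rich peptide), beside 2.75 % of all features. GASA1 went from 7.27 ± 0.84 to under the floor on all PEG arrays (log2 fold change -3.27, limma adjusted p = 0.0098). This call was lost with any array but untreated replicate 2 left out (limma adjusted p up to 0.044), and with the ordinary t statistic. GASA1 entered the restricted fit through its untreated arrays alone. There its limma adjusted p was 3.9e-05, and it passed the limit on p whichever array was left out. The other feature of GASA1 missed the limit on p (-2.44, adjusted p = 0.014). None of the other 7 passed the limit on p in the full fit with the floor. Values were -0.62 for the cysteine protease CP1 and 0.51 for GASA4, for example, and PRE1 and PRE5 lay under the floor on all arrays. GASA14 (log2 fold change -0.62) passed in the restricted fit (limma adjusted p = 0.0097), but not without the floor (0.027). The other feature of GASA14 (-0.72) passed in both, with limma adjusted p of 0.0016 and 0.0066. The median over the 8 genes was 0.00.

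Of 8 factors known to act on gibberellin metabolism genes in seeds, 1 was called (SOM), beside 2.75 % of all features. At any fold change 3 of the 8 passed the limit on p, beside 15.7 % of all features. SOMNUS is a CCCH zinc finger protein that acts on GA3ox1, GA3ox2 and GA2ox2 in seeds kept in the dark. Its transcript had 6.43, 6.43 and 6.31 in untreated seeds and 10.78, 10.52 and 10.46 after PEG, which is a rise of 4.20 on the log2 scale with an SE of 0.10 (adjusted p = 1.8e-04 from limma). PIF1, the phytochrome-interacting factor that activates SOM, had a log2 fold change of 0.28 and did not pass (limma adjusted p = 0.22). JMJ20, a histone demethylase that acts on both GA3-oxidase genes, rose by 0.94 (adjusted p = 0.0045). BME3, a GATA factor, fell by 0.96 (adjusted p = 0.0034), both from limma. SOM kept its call with each array left out. JMJ20 did not pass with any array left out, and BME3 only without untreated replicate 1, with adjusted p of up to 0.022 and 0.020 in limma, while both passed in the restricted fit whichever array was left out. The other 4 factors (JMJ22, DAG1, SPT and FUS3) did not pass the limit on p with the floor, and FUS3 lay under it on all arrays. SPT, a bHLH factor, had a log2 fold change of -1.24 (limma adjusted p = 0.017), which passed the limit on p without the floor (0.0014) and in the restricted fit (3.7e-04). The direction of action on the members is not given here for any factor, and the signs of the factors were not matched to those of the members. Whether any of these factors acted on the members was not tested.

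**Figure D4:**
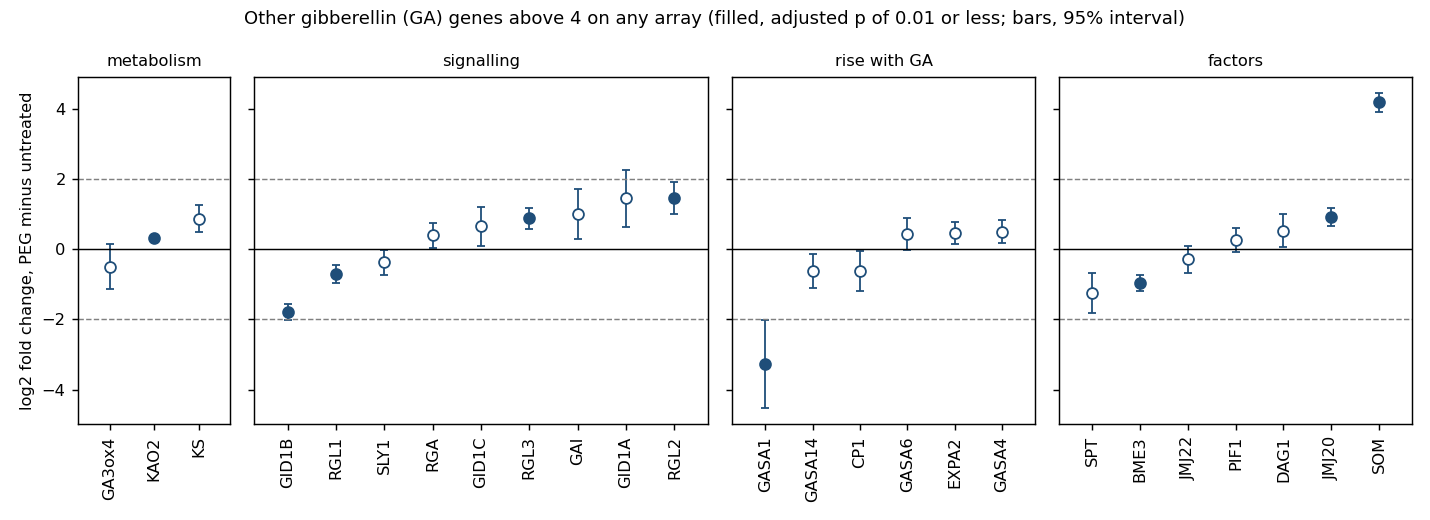
Log2 fold change (PEG minus untreated, values under 4 set to 4) with 95 % intervals from limma for the other gibberellin genes above 4 on at least 1 array, in 4 panels: metabolism, signalling, genes that rise with gibberellin (GA), and factors that act on gibberellin metabolism genes. Filled points passed the limit on p; SOM at 4.20 and GASA1 at -3.27 are the points beyond the fold limit.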

How the data were processed

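The authors deposited log2 expression values from Affymetrix arrays for 35986 features. Per the labels, RMA was used; a custom probe definition is described for the ABA arrays of the study only, and further steps for these arrays are not given in the sources used here. All columns belong to the 6 arrays, which were grouped by sample title. Values under 4 were set to 4, following the array methods of the study. The test of PEG against untreated arrays was a linear model without covariates, with moderated variances (limma 3.58.1, R 4.3.3) and Benjamini-Hochberg adjustment over all features. With the floor, 12085 features had the same value on all arrays and entered the moderation with no variance. The restricted fit leaves these out, so adjusted p, also with an array left out, can differ between the full and the restricted fit for technical reasons. A gene was represented by its feature with the highest mean. Summaries used Python 3.11.15, pandas 2.3.3 and numpy 2.4.6.

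The members, the lists of other genes, the rule for named genes and the alternatives were chosen with earlier results of these data known. Named were all members, called genes of the other lists, examples among the rest, and the 3 features nearest in pattern to a called member. Locus names came from the TAIR10.1 gene table, in which all 60 listed loci matched. On simulated data with 35986 features the procedure recovered 72 of 100 features shifted by 2.5 and 90 of 100 shifted by 4 on the log2 scale. These features started well above the floor. No unchanged feature was called, which the fold limit made likely in advance. The simulation does not bear on members near or under the floor, or on falls that end there. Alternatives were no floor, a floor of 5, other limits, quantile normalization, array centring, a fit restricted to features that exceeded 4 on 3 or more arrays, a trended prior, the ordinary t statistic, a replicate block, the lowest feature of a gene and leaving out each array. The planned description of promoter motifs and protein identity was not made.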

Additional observations from a re-analysis of the deposited data

How the results depend on the processing

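GA3ox2 was called in every setting but 1. The number of called members was 1 with each array left out, also within the restricted fit, and moved to 3 without the floor, to 3 with a fold limit of 1 and to 0 with the replicate number as a block. Under the block GA3ox2 had a limma adjusted p of 0.023, while the count over all features dropped from 990 to 25; with the block in the fit restricted to features that exceeded 4 on 3 or more arrays, added after seeing the data, 1 member and 1064 features were called. These 1064 are all features of that fit past the fold limit at any p, with or without the block, so that count does not show how the block bears on the calls. Deviations from the group means had r of -0.09, -0.02 and 0.04 between same-numbered arrays, and -0.12 to 0.11 between differently numbered ones. With 3 arrays per group, this cannot show whether untreated and PEG arrays share a harvest. The count over all features was 1684 without the floor, 658 with a floor of 5, 3675 with a fold limit of 1 and 589 to 736 with 1 array left out (624 without untreated replicate 1, 629 without untreated replicate 3, 589 without PEG replicate 2 and 605 without PEG replicate 3). Within the restricted fit it was 987 to 1130, with 1 to 8 features past the fold limit not called. The count of called signalling genes was 0 in all settings except the fold limit of 1, which gave 2 (GID1B and RGL2). Other metabolism genes were called in no setting. The sign turned for GA20ox1 after quantile normalization (0.02) and for KAO1 without untreated replicate 1 (-3.1e-04 in the full and the restricted fit), where leaving out 1 array gave values up to 0.38. The GA20-oxidases, GA2ox1 and GA2ox6 did not enter the filtered fits, as they lay above the floor on fewer than 3 arrays. Their levels are limited by background, and a difference under the floor was not detectable with it.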
